A study of Homo sapiens with 4 samples.

Results

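Summits of Star-PAP HITS-CLIP peaks at genes for small non-coding RNAs were taken from all 3 deposited peak lists. A summit was included when it lay on chromosomes 1 to 22 within 100 bp of a gene that GENCODE release 44, mapped to hg19, types as snRNA, snoRNA, miRNA, rRNA or misc_RNA. The type scaRNA does not occur in this annotation, where small Cajal body RNAs are typed as snoRNA. RN7SK, RN7SL1, RN7SL2, RMRP, RPPH1 and SNORD3A were left out. The search covered 8018 gene records, and 1122 of 965423 autosomal summits met the rule, out of 1031599 summits in the lists. The control list held 313 of these summits, or 0.0817% of its 382958 autosomal summits. The siStar-PAP list held 422, or 0.138% of 306360, and the siRBM10 list held 387, or 0.14% of 276105. Only 4 of the summits lay near more than 1 record.

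HITS-CLIP sequences the RNA that is crosslinked to a protein by UV light and pulled down with an antibody. The experiment used HEK293, a human embryonic kidney cell line, irradiated at 400 mJ/cm2, and comprised 4 samples of 1 library each. Per the labels, siRNA oligos were transfected with Oligofectamine at 60% confluency and cells were harvested 48 h later. An anti-Star-PAP antibody was used on control cells, on cells with siRNA against Star-PAP (siStar-PAP) and on cells with siRNA against RBM10 (siRBM10), and the IgG pull-down served as the reference of peak calling. The siStar-PAP library is thus a pull-down with the same antibody from cells depleted of its target, and peak lists do not show how far the depletion went. With 1 library per condition no difference between conditions has a replicate check, and none was tested.

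Star-PAP, encoded by TUT1, is a nuclear poly(A) polymerase that is also known as the terminal uridylyltransferase of U6 snRNA, to whose 3′ end it adds uridines. RBM10 is an RNA-binding protein known for its part in splicing. Small nuclear RNAs such as U1, U2, U4, U5 and U6 form the spliceosome. C/D box snoRNAs (SNORD genes) guide 2′-O-methylation and H/ACA box snoRNAs (SNORA genes) guide pseudouridylation of ribosomal RNA, whereas scaRNAs guide the same changes on snRNAs. Most human snoRNAs are cut out of the introns of host genes. The 7SL RNA is the scaffold of the signal recognition particle, 7SK RNA binds the elongation factor P-TEFb, and Y RNAs bind the Ro protein. U6, 7SL, 7SK and Y RNA have left very many copies in the genome, most of which are listed as pseudogenes or under a family name.

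The results turned on snoRNA genes with a summit in both depletion lists, and 4 of them are shown here with 5 bases on each side of every summit inside the gene in capitals. All are read 5′ to 3′ on the strand of the gene from the GRCh37 genome, which is the hg19 assembly. SNORD17 lies in an intron of SNX5, at chr20:17943353-17943589 on the minus strand. SNORA53 overlaps an annotated exon of SLC25A3, at chr12:98993413-98993661 on the plus strand. SCARNA12 overlaps an exon of PHB2, at chr12:7076500-7076769 on the minus strand. SNORD15A overlaps an exon of RPS3, at chr11:75111435-75111582 on the plus strand.
SNORD17: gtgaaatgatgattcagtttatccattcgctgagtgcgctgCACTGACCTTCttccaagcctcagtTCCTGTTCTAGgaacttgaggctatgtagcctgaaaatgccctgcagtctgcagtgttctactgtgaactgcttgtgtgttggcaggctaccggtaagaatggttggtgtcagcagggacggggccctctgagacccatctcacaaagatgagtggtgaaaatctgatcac
SNORA53: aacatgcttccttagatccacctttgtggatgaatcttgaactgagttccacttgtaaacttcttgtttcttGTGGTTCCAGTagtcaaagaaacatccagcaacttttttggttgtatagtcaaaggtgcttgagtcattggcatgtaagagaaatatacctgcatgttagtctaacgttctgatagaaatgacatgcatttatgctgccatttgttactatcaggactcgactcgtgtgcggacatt
SCARNA12: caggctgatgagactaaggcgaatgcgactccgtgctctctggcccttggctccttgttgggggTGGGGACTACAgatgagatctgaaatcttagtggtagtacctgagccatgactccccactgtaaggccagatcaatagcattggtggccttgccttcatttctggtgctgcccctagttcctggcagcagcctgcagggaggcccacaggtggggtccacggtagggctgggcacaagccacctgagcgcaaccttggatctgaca
SNORD15A: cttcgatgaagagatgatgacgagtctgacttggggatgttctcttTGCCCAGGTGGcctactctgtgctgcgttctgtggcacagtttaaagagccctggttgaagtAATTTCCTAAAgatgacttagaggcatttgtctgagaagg
In SNORA53 and SCARNA12 both depletion lists placed the summit on the same base, 78 and 70 nt from the 5′ end of the gene. In SNORD17 the summits lay at 47 and 72 nt on siStar-PAP and siRBM10, and in SNORD15A at 114 and 52 nt.

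The lists give for each peak a summit of 1 bp and a score, which is the peak's MACS2 p-value as −log10, with 0.05 as the largest p. They give no strand, width, number of tags or read total, so the depth behind each list is unknown. A summit on a small RNA inside a host gene can therefore not be told apart from one on the host transcript. Scores depend on the depth of the library and of IgG and are described only within a list. In the control list 63.1% of autosomal summits shared the score 1.33, whereas the commonest score was held by 22.1% on siStar-PAP and by 22.2% on siRBM10. Peak density over the autosomes was 143, 114 and 103 summits per Mb in the control, siStar-PAP and siRBM10 lists. Densities at small RNA genes were set beside 20 sets of positions drawn at random from the sequenced bases of each chromosome, with the number per chromosome kept, as a description of each list. Intervals in brackets are 95% intervals, exact Poisson for densities and ratios and Wilson for shares. They cover the counting error of the summits only, so the error of a shuffled mean is not included.

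Small RNA genes as a whole held fewer summits than shuffled positions in the control list and more in both depletion lists. The control density was 120.1 summits per Mb of windows, 0.866 times the shuffled mean (0.773 to 0.967). On siStar-PAP it was 162 per Mb and 1.33 times the shuffled mean (1.21 to 1.47), and on siRBM10 148 per Mb and 1.34 times (1.21 to 1.48). The difference was larger for the 1575 records with a symbol of their own, meaning a gene symbol that no other record carries and that is neither a numbered pseudogene nor a clone, provisional or family name. There the ratio was 0.577 in control (0.404 to 0.799), 1.87 on siStar-PAP (1.55 to 2.24) and 2.35 on siRBM10 (1.96 to 2.8). For the other 6443 records, mostly pseudogene copies and records with a clone, provisional or family name, it was 0.926, 1.2 and 1.11. Flanks from 1 kb to 10 kb on both sides of the genes were set beside all records as well. Against them the ratios came to 0.936 in control, 1.12 on siStar-PAP and 1.17 on siRBM10. The control flanks held 128 summits per Mb, fewer than the 138.6 at shuffled positions, so part of the control deficit lay in the surroundings. In the depletion lists the surroundings of small RNA genes were richer in summits than shuffled positions.

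**Figure D1:**
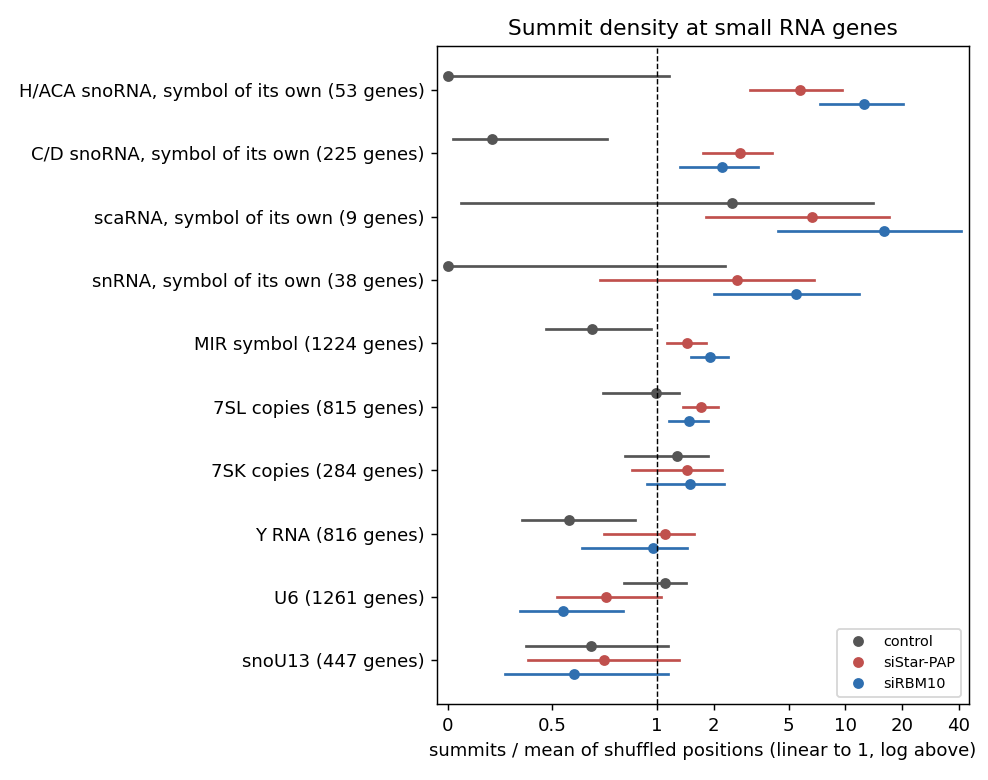
Number of summits within 100 bp of the genes of each class divided by the mean of 20 shuffled sets (x axis, linear from 0 to 1 and logarithmic above), with exact Poisson 95% intervals as lines, for the control (grey), siStar-PAP (red) and siRBM10 (blue) lists. The dashed line marks the shuffled mean, whose own error the intervals leave out. H/ACA snoRNAs with a symbol of their own stood at 0, 5.71 and 12.6 times the shuffled mean, whereas U6 stood at 1.11, 0.756 and 0.552.

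SnoRNA and scaRNA genes with a symbol of their own were nearly free of control summits and held many summits in both depletion lists. Of 287 such genes, 3 had a summit in control, 42 on siStar-PAP and 40 on siRBM10, against shuffled means of 13.1, 11.8 and 10.2 summits. The lowest and highest of the 20 shuffled counts were 8 and 20 for control, 7 and 18 for siStar-PAP and 6 and 18 for siRBM10, so the control count lay below its shuffled range and the other counts above theirs. Against their own flanks from 1 kb to 10 kb the control ratio was 0.37 with an interval of 0.0763 to 1.08 that included 1, and the others were 2.18 (1.57 to 2.94) and 2.49 (1.78 to 3.39). The 3 control summits, at SCARNA3 in COP1, SNORD114-20 in MEG8 and SNORD115-47 in SNHG14, all had the score 1.33, the commonest of that list. On siStar-PAP the scores of the 42 summits ran from 1.32 to 9.19 with a median of 2.51, and on siRBM10 those of the 40 ran from 1.58 to 12.4 with a median of 2.77.

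The same genes recurred between the depletion lists only in part. A summit was present in both in 16 of the 287 genes, on siStar-PAP alone in 26, on siRBM10 alone in 24 and in control alone in 3. No gene had a summit in control and in a depletion list, and 218 had none. Over all 8018 records, 57 had a summit in both depletion lists and not in control, 13 in control and siStar-PAP, 8 in control and siRBM10, and 6 in all 3 lists, while 6982 had none.

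The 369 H/ACA snoRNA records held 12 summits in control, 27 on siStar-PAP and 38 on siRBM10, or 0.752 times the shuffled mean (0.389 to 1.31), 1.9 times (1.25 to 2.77) and 2.98 times (2.11 to 4.09). The departure lay mainly at the 53 with a symbol of their own. These held 0 summits in control, against a shuffled mean of 3.2. The exact Poisson interval of a count of 0 includes that mean, so a deficit in control was not detectable for these genes by themselves. On siStar-PAP they held 14 summits, 5.71 times the shuffled mean (3.12 to 9.59). On siRBM10 they held 17 summits, 12.6 times the shuffled mean (7.34 to 20.2). Shuffled means at so few genes are small, so both ratios are less certain than their intervals show. SNORA53 had the highest score of these genes on siRBM10, 11.4, and 2.83 on siStar-PAP. SNORA23, in an intron of IPO7, the gene for an importin, had the highest on siStar-PAP, 6.07, and 8.79 on siRBM10. SNORA23 had its summits 44 and 32 nt before its first base, 12 bp apart. TBRG4 held SNORA5A and SNORA5C, each with a summit in both depletion lists.

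H/ACA records that share a symbol included higher scores. SNORA81, at chr3:186504464-186504641 in EIF4A2, the gene for an RNA helicase of translation initiation, had scores of 11.9 on siStar-PAP and 11.7 on siRBM10, with summits 122 bp apart. SNORA63 in the same host had a score of 16.4 on siRBM10, the highest snoRNA score of that list. As a class the 316 H/ACA records with a shared symbol held 12, 13 and 21 summits in control, siStar-PAP and siRBM10, at 0.941, 1.11 and 1.84 times the shuffled mean. In control the highest score of an H/ACA record was 3.24, at SNORA43, which had a summit on siRBM10 24 bp away.

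The 225 C/D snoRNA genes with a symbol of their own held 2 summits in control, 24 on siStar-PAP and 19 on siRBM10. These counts were 0.211 times the shuffled mean (0.0255 to 0.76), 2.74 times (1.76 to 4.08) and 2.21 times (1.33 to 3.45). SNORD17 had the highest score of the class on siRBM10, 12.4, and shared the highest on siStar-PAP, 9.19, with SNORD15B of RPS3, the gene for a ribosomal protein. SNORD15A of the same host had 8.77 on siStar-PAP and 2.6 on siRBM10, and SNORD68 of RPL13 had 4.74 and 6.85. The 155 C/D records with a shared symbol held 5, 5 and 4 summits, close to the shuffled means of 5.75, 4.95 and 4.1. SNORD39, at chr11:109134221-109134291, had the highest C/D score in control, 3.36. The 447 records named snoU13 held 14, 12 and 9 summits, all below the shuffled means of 20.5, 16.1 and 14.9, although records of that name had 2 of the 5 highest scores in control, 6.19 and 5.77.

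Among the 48 scaRNA records there were 2, 10 and 7 summits, 1, 4.55 and 4 times the shuffled means of 2, 2.2 and 1.75. SCARNA12 had scores of 7.18 on siStar-PAP and 4.94 on siRBM10, SCARNA7 in KPNA4 had 6.6 and 5.2, and SCARNA17 in the lncRNA gene SNHG22 had 6.54 and 9.74. In ATG16L1, SCARNA6 had 2.61 and 10.2, the latter being the highest scaRNA score on siRBM10, and SCARNA5 had 1.5 and 2.73. The highest scaRNA score in control was 3.13, at the record SCARNA4 on chromosome 2. All 7 scaRNA summits on siRBM10 and 8 of the 10 on siStar-PAP lay inside the gene. The share expected by length is not given here, and scaRNA genes such as SCARNA12, with 270 nt, fill much of their windows.

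**Figure D2:**
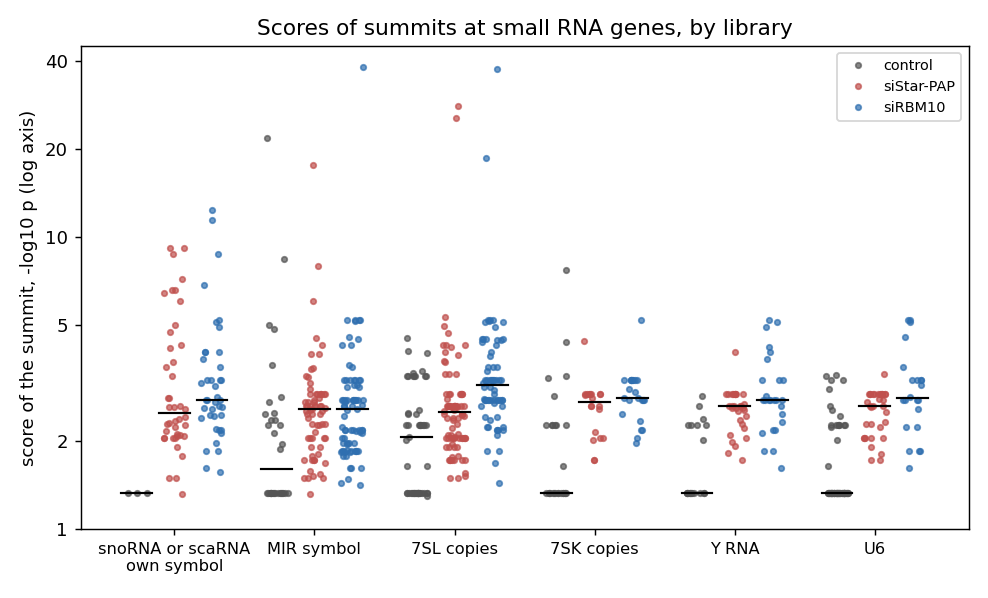
Score of each summit, the −log10 p of the peak caller on a logarithmic axis, by class and list (grey control, red siStar-PAP, blue siRBM10), with each point a summit spread sideways at random and bars at the median. The 3 control summits at snoRNA or scaRNA genes with a symbol of their own lie at 1.33, and U6 reaches 3.38, 3.4 and 5.2 at most in the control, siStar-PAP and siRBM10 lists.

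Values at the snoRNAs also differed by type of host gene. A host was a protein-coding or lncRNA gene that contained the small RNA gene on the same strand. The 141 snoRNA and scaRNA genes with a symbol of their own and a protein-coding host held 1 summit in control, 34 on siStar-PAP and 31 on siRBM10, or 0.157, 6.24 and 7.21 times the shuffled mean. The 130 with a lncRNA host held 2, 8 and 6, or 0.333, 1.58 and 1.2 times. They include array genes such as those of SNORD115 in SNHG14, where both control summits lay in SNHG14 and MEG8. Type of host was thus not separated from family of snoRNA. The 16 without a host held 0, 0 and 3. Many snoRNA hosts encode ribosomal proteins, and with this group chosen after values were seen, 42 of the 141 genes lay in 22 hosts named RPL or RPS. Of these 42 genes, 0 had a summit in control, 14 on siStar-PAP (33.3%, 21 to 48.4%) and 8 on siRBM10 (19%, 9.98 to 33.3%). Of the other 99, 1 had a summit in control, 20 on siStar-PAP (20.2%, 13.5 to 29.2%) and 23 on siRBM10 (23.2%, 16 to 32.5%). The intervals of the host groups overlapped in each list.

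The density at the snoRNA was compared with the rest of the same hosts, to see how far the host transcript as a whole differed. Over the 119 hosts of 271 genes the density at the small RNA was 36.8 summits per Mb in control (7.58 to 107), 515 on siStar-PAP (371 to 696) and 453 on siRBM10 (319 to 625). In the other exons of these hosts it was 108, 252 and 221 per Mb, and in their other introns 125, 153 and 120.2. Host exons thus also held more summits per Mb in the depletion lists than in control, and whether this bears on the values at the snoRNAs was not tested. For the 167 snoRNA and scaRNA genes that lie in an intron of the host, the density was 59 per Mb in control, 394 on siStar-PAP and 354 on siRBM10, against 126, 148 and 117 in the other introns. The depletion lists were higher at these intronic snoRNAs than in the introns around them, with intervals of 240.4 to 608 and 210 to 560 that exclude the intron values, and the control interval of 12.2 to 173 included the intron value.

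**Figure D3:**
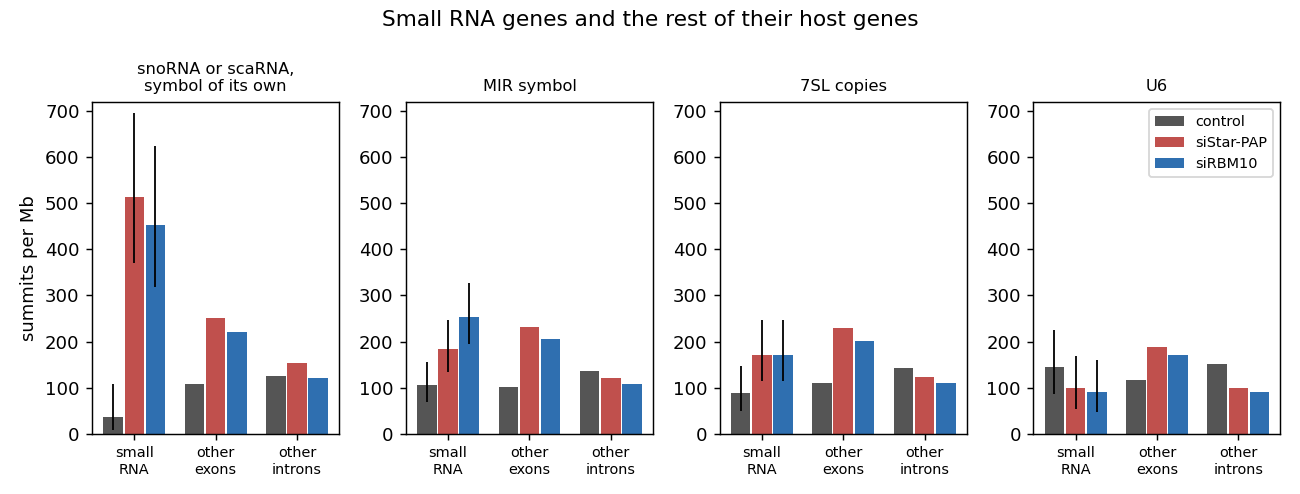
Summits per Mb (y axis) within 100 bp of small RNA genes that lie in a host gene, and in the other exons and other introns of the same hosts, for 4 groups of small RNAs in the control (grey), siStar-PAP (red) and siRBM10 (blue) lists, with exact Poisson 95% intervals on the small RNA bars. At the 271 snoRNA and scaRNA genes with a symbol of their own and a host the bars stand at 36.8, 515 and 453, whereas at U6 records they stand at 145, 99 and 91.3.

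The hosts with most summits over the lists were the lncRNA gene ENSG00000269842, which contains miRNA genes of the chromosome 19 cluster and had 2 summits in control, 1 on siStar-PAP and 3 on siRBM10, SNHG14, which contains the SNORD115 and SNORD116 arrays and had 1, 3 and 1, and SNHG17, which contains SNORA71A to SNORA71D and had 0, 3 and 2. EIF4A2 had 0, 2 and 2, and ATG16L1 and TBRG4 had the same numbers.

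Along the gene, C/D summits on siStar-PAP were most frequent after the 3′ end and H/ACA summits on siRBM10 in the 5′ part, on small counts. On siStar-PAP, 15 of the 24 summits at C/D genes lay in the 100 bp after the 3′ end, 667 per Mb (373 to 1100), against 3 in the 100 bp before the 5′ end, 133 per Mb (27.5 to 390), so that the intervals just met. On siRBM10 these counts were 7 and 3 of 19, 311 per Mb (125 to 641) and 133 per Mb. With each C/D gene cut into 3 equal parts, the 3′-most part on siStar-PAP held 4 summits, 576 per Mb (157 to 1474). Its interval overlapped that of the stretch after the gene. On siRBM10 the 5′-most part was at 576 per Mb (157 to 1474), the middle at 288 and the 3′-most at 432 (89.1 to 1262). The densest stretch on siRBM10 was thus not the one after the gene, and all these intervals overlapped. At H/ACA genes on siRBM10, 9 of 17 summits lay in the 5′-most part when each gene was cut into 3 equal parts, 3300 per Mb (1509 to 6264), against 1 in the 3′-most part, 367 per Mb (9.28 to 2043), again with intervals that overlapped. On siStar-PAP the same parts held 4 and 2 of 14 H/ACA summits.

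**Figure D4:**
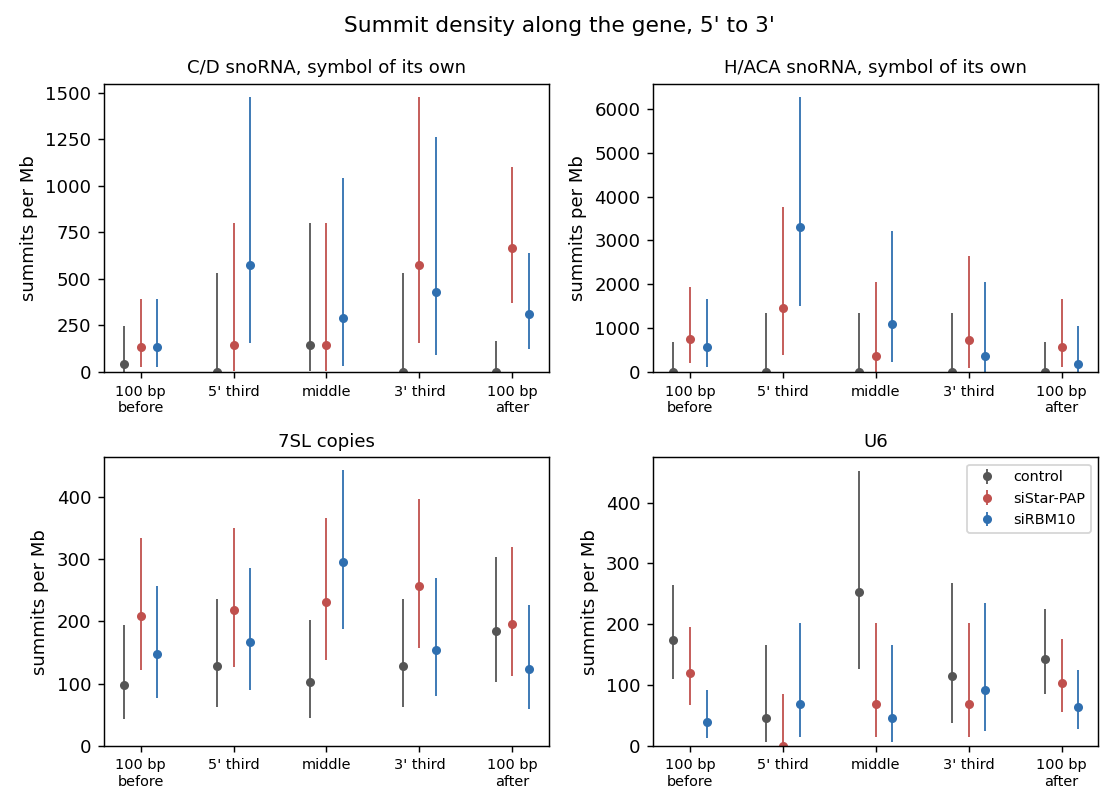
Summits per Mb (y axis, a scale of its own in each panel) in the 100 bp before the gene, in 3 equal parts of the gene from 5′ to 3′, and in the 100 bp after it (x axis), with exact Poisson 95% intervals, for C/D and H/ACA snoRNAs with a symbol of their own, 7SL copies and U6 in the control (grey), siStar-PAP (red) and siRBM10 (blue) lists. C/D genes on siStar-PAP reach 667 per Mb after the gene, and U6 has no summit in its 5′ part on siStar-PAP.

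U6 showed the opposite order of lists when summits of every score were counted. The 1261 U6 records held 58 summits in control, 34 on siStar-PAP and 22 on siRBM10, which were 1.11 times the shuffled mean (0.841 to 1.43), 0.756 times (0.523 to 1.06) and 0.552 times (0.346 to 0.836). Of these intervals, that of siRBM10 left out 1. Against their own flanks from 1 kb to 10 kb the ratios were 1.05 in control (0.795 to 1.35), 0.668 on siStar-PAP (0.463 to 0.933) and 0.489 on siRBM10 (0.307 to 0.741), so that both depletion intervals left out 1. The 828 U6 records without a host held 39, 21 and 10 of these summits, and the 433 in a host held 19, 13 and 12. Within 20 nt of the 3′ end, where Star-PAP is known to add uridines, there were 2 of 58, 4 of 34 and 2 of 22 summits. Over all small RNA records 34 of 313, 53 of 422 and 39 of 387 summits lay that close, so U6 did not stand out. RNU6-1, RNU6-2, RNU6-7, RNU6-8 and RNU6-9 had no summit within 100 bp, and the nearest lay 161 bp away, from RNU6-8 on siStar-PAP. The scores of U6 summits were low in each list, with maxima of 3.38 at RNU6-529P in control, 3.4 at RNU6-513P on siStar-PAP and 5.2 on siRBM10, the last held by RNU6-128P and RNU6-713P. In control 40 of the 58 U6 summits (69%) had the commonest score of that list, 1.33, against 63.1% of all its autosomal summits. With p at most 0.01 control no longer held the most U6 summits, and ratios to shuffled positions at that setting are not given here. RNU6-48P, in an intron of TMEM222, was the U6 record with a summit in all 3 lists and had scores of 2.65, 2.06 and 3.6, with summits 67, 16 and 52 nt past its 3′ end.

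Likeness to RNU6-1 did not set the U6 records with a summit apart. The median identity over the length of RNU6-1 was 82.7% for the 58 records with a control summit and 81.3% for the others, 80.8% and 82.2% on siStar-PAP, and 84.1% and 81.3% on siRBM10. No record with a summit was identical to RNU6-1, and 98.1% was the highest identity among them, whereas 6 records without a summit, RNU6-1 included, matched it over its whole length. The authors kept uniquely mapped reads, so a read wholly inside these 6 records could not be counted, and the lists do not show whether U6 itself was bound.

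Among the 38 snRNA records with a symbol of their own, those of U6 included, control had no summit. On siStar-PAP they had 4 and on siRBM10 6, against shuffled means of 1.6, 1.5 and 1.1 in control, siStar-PAP and siRBM10. Among 23 reference small RNAs listed on the autosomes, 0, 4 and 5 had a summit. RNU5E-1, a U5 gene at chr1:11968209-11968328 on the plus strand, had its summit on the same base in both depletion lists, 60 nt before its 5′ end, with scores of 7.42 and 10.3. RNU4-2, which encodes U4, had scores of 1.58 and 8.05, and RNU4-1 had 1.5 and 1.85. In both U4 genes the siStar-PAP summit lay before the gene, by 74 and 62 nt, and the siRBM10 summit lay on base 8 of RNU4-2 and base 1 of RNU4-1. RNU5A-1 and RNU5D-1 had a summit on siRBM10 and RNY1 on siStar-PAP. RNU1-1 to RNU1-4, RNU5B-1, RNU5F-1, RNU6ATAC, RNU4ATAC, RNU7-1, RNY3, RNY4 and RNY5 had none in any list. RNU2-1, RNU11 and RNU12 were not analysed here.

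U2 records had few summits, 4, 3 and 4, but among the highest scores. RNU2-59P, at chr10:103124602-103124792 on the minus strand, had 14.4 on siStar-PAP and 12.7 on siRBM10, with summits 37 bp apart. RNU2-2P, at chr11:62609091-62609281 inside WDR74 and known to be transcribed despite its symbol, had 3.06 and 15.1, with summits 44 and 19 nt before its 5′ end. In control the 4 U2 summits, RNU2-12P among them, all had the score 1.33. U1 records held 4, 11 and 6 summits, with maxima of 3.49 at RNU1-52P, 3.54 at RNU1-47P and 2.77 at RNU1-76P. U4 records held 4, 2 and 3, U5 records 0, 1 and 4, U7 records 4, 3 and 4, U6atac records 1, 0 and 1, U4atac records 0, 1 and 0, and the 4 U11 records none. Their leading records were RNU4-22P with 2.28 in control, RNU7-126P, RNU7-102P and RNU7-43P with 1.33, 2.92 and 4.89 in control, siStar-PAP and siRBM10, RNU6ATAC12P with 2.28 in control, RNU6ATAC34P with 3.25 on siRBM10 and RNU4ATAC6P with 2.64 on siStar-PAP. The 44 rRNA records held 1 summit in each list, at RNA5SP196, RNA5SP348 and RNA5SP85, all copies of 5S ribosomal RNA. The 16 other misc_RNA records held 1, 1 and 2, with the highest scores at CoTC_ribozyme, Vault and CPEB3_ribozyme.

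The 815 copies of 7SL held 51 summits in control, 88 on siStar-PAP and 70 on siRBM10, or 0.996 times the shuffled mean (0.742 to 1.31), 1.71 times (1.37 to 2.11) and 1.48 times (1.15 to 1.87). Their flanks from 1 kb to 10 kb held 114, 166 and 143 summits per Mb, against 129, 222 and 176 at the copies. Against these flanks the ratios were 1.13 in control (0.841 to 1.48), 1.33 on siStar-PAP (1.07 to 1.64) and 1.24 on siRBM10 (0.964 to 1.56), so that the siRBM10 interval now included 1. RN7SL3 had a score of 2.51 in control, 28.2 on siStar-PAP and 37.6 on siRBM10, and ranked 8 of 306360 on siStar-PAP and 9 of 276105 on siRBM10. Its 3 summits lay 80, 113 and 105 nt from its 5′ end in control, siStar-PAP and siRBM10. RN7SL151P had scores of 25.6 and 18.7 with both summits on base 89. The identity of RN7SL151P to RN7SL3 over the whole length of RN7SL3 was 77.1%. RN7SL3 itself was 96.3% identical to RN7SL2 and was the only copy that reached 95%. Inside the copies lay 54.9%, 62.5% and 68.6% of the summits. The median identity of copies to RN7SL2 was 78.5% with a control summit and 78.8% without, 78.5% and 78.8% on siStar-PAP, and 78.8% and 78.5% on siRBM10. The highest control score of a copy was 4.53, at RN7SL234P in an intron of TAB2, and RN7SL694P had a summit in all 3 lists with scores of 2.28, 2.64 and 3.25.

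The 284 copies of 7SK held 27, 20 and 23 summits, 1.28, 1.44 and 1.5 times the shuffled mean, and all 3 intervals included 1. Against their own flanks the siRBM10 ratio was 1.6 (1.02 to 2.41), which left out 1, whereas those of control and siStar-PAP were 1.3 (0.857 to 1.89) and 1.32 (0.805 to 2.03). RN7SKP64 had a summit in all 3 lists with scores of 4.38, 2.89 and 2.83. RN7SKP249 had 7.75, the third highest score of a small RNA gene in control, and RN7SKP204 and RN7SKP37 led this class on siStar-PAP and siRBM10 with 4.42 and 5.2. The 816 Y RNA records held 20, 31 and 26 summits, or 0.581 times the shuffled mean (0.355 to 0.897), 1.1 times (0.748 to 1.56) and 0.979 times (0.64 to 1.43), so that only the control interval left out 1. Against their own flanks all 3 ratios of Y RNA records were below 1. They were 0.63 in control (0.385 to 0.974), 0.829 on siStar-PAP (0.563 to 1.18) and 0.806 on siRBM10 (0.526 to 1.18). Their highest scores were 2.85, 4.06 and 5.2. The median identity to the nearest of RNY1, RNY3, RNY4 and RNY5 was 87.3% for Y RNA records with a control summit and 86.5% for the others, 86.3% and 86.7% on siStar-PAP, and 87% and 86.5% on siRBM10.

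The 1224 miRNA genes with a MIR symbol of their own held 32 summits in control, 70 on siStar-PAP and 79 on siRBM10, or 0.688 times the shuffled mean (0.471 to 0.971), 1.44 times (1.13 to 1.83) and 1.91 times (1.51 to 2.38). Against their own flanks the ratios were 0.891 in control (0.61 to 1.26) and 1.48 on siRBM10 (1.17 to 1.85), with an interval of 0.891 to 1.44 on siStar-PAP. The 627 in a protein-coding host held 19, 39 and 45, the 236 in a lncRNA host 7, 6 and 17, and the 361 without a host 6, 25 and 17. Of 172 MIR genes with a summit in any list, 156 were found in the miRNA table of RefSeq on GRCh38.p14. The mature miRNAs of the genes with the highest scores in that table are given with the seed, bases 2 to 8, in capitals, to show that different seeds were involved: MIR941-3 in DNAJC5 with 8.4 in control, MIR5192 in B3GNT2 with 7.95 on siStar-PAP, and MIR30C2 in LINC00472 with 5.2 on siRBM10, a score that MIR2355, MIR320C2 and MIR5009 shared.
hsa-miR-941: cACCCGGCugugugcacaugugc
hsa-miR-5192: aGGAGAGUggauuccagguggu
hsa-miR-30c-5p: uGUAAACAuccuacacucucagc
hsa-miR-30c-2-3p: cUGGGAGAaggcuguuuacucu
The seed shared by most MIR genes with a summit belonged to 3 genes, and there were 2 such seeds, GGGCUGG of MIR4492, MIR4498 and MIR5001 and CUGGACU of MIR378F, MIR378I and MIR422A. The remaining 5 shared seeds belonged to 2 genes each, among them GAGGUAG of MIRLET7C and MIRLET7F1.

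A pair of miRNA records had strong summits in all 3 lists. MIR3648, at chr21:9825832-9826011 on the plus strand, had scores of 21.9, 17.7 and 38.1 and ranked 53 of 382958 in control. Of the stretches of 25 nt within 201 nt around its summits, 80.2% in control, 85.9% on siStar-PAP and all on siRBM10 also occur on GL000220.1, an unplaced sequence of the assembly that holds ribosomal DNA. AL161626.1, at chr9:79186731-79186787 in an intron of GCNT1, had scores of 4.31, 8.37 and 55.2, and 34.5%, 23.7% and 23.7% of its stretches occur there. The siRBM10 summit of AL161626.1 ranked 6 of 276105, and that of siStar-PAP lay 1 bp away from it. A total of 15 of the 1122 summits had 20% or more of their stretches on GL000220.1, 6 of them at these genes.

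Sharing between lists was read within 500 bp, beside the same measure over all autosomal summits. Of the control summits at small RNA genes, 86.3% had no siStar-PAP summit within 500 bp, against 89.3% of all, and 89.1% had no siRBM10 summit, against 91.2%. Of the siStar-PAP summits, 89.6% had no control summit, against 86.4%, and 73.7% had no siRBM10 summit, against 83.6%. Of the siRBM10 summits, 90.7% had no control summit, against 87.7%, and 69.8% had no siStar-PAP summit, against 81.8%. Summits at small RNA genes were thus near one of the other depletion list more often than autosomal summits in general, at 26.3% (22.3 to 30.7%) against 16.4% for siStar-PAP and 30.2% (25.9 to 35%) against 18.2% for siRBM10. At snoRNA and scaRNA genes with a symbol of their own, 26 of 42 siStar-PAP summits, or 61.9% (46.8 to 75%), had an siRBM10 summit within 500 bp, and 0 of 42 had a control summit. Of the 40 siRBM10 summits there, 20 had a siStar-PAP summit and 1 had a control summit. In the 57 records with a summit in both depletion lists and not in control, the summits lay within 10 bp of each other in 12, within 50 bp in 28 and within 100 bp in 38, with a median distance of 52 bp. Both summits had to lie within 100 bp of the same record, which by itself keeps them close. No distance expected at random is set beside these values.

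Summits at small RNA genes had high scores more often than autosomal summits of the same list. A score of 4 or more was found for 4.47% in control (2.68 to 7.37%) against 2.5% of all autosomal summits, for 10.4% on siStar-PAP (7.86 to 13.7%) against 6.33%, and for 20.4% on siRBM10 (16.7 to 24.7%) against 12.4%. The medians, 1.33, 2.64 and 2.77, were close to those of all autosomal summits, 1.33, 2.64 and 2.83. At snoRNA and scaRNA genes with a symbol of their own 12 of 42 summits on siStar-PAP and 10 of 40 on siRBM10 had a score of 4 or more.

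The bases around the summits differed between the lists. In the 41 nt centred on each summit, read on the strand of the gene, G and C made up 42.9% in control, 48.5% on siStar-PAP and 49.6% on siRBM10, against 42.5% at positions of the records without a summit. The letters ATA occurred in 47.3%, 32.9% and 29.2% of these windows, against 45.2%, and TTTT in 19.5%, 16.8% and 15.2%, against 22.8%. A run of 6 T, TTTTTT, occurred in 4.15%, 3.79% and 1.29%, against 3.46%, and GGGGGG in 0.958%, 1.42% and 0.775%, against 0.479%. At snoRNA and scaRNA genes with a symbol of their own the share with ATA was 28.6% on siStar-PAP and 25% on siRBM10, against 41.3% at genes of the group without a summit. At U6 it was 60.3%, 50% and 36.4%, against 62.3%, which was 8 of 22 windows on siRBM10. U6 made up 18.5%, 8.06% and 5.68% of the summits, so the values over all records mix classes in unequal shares. At Y RNA records ATA occurred in 40%, 58.1% and 42.3%, against 43.2%, so siStar-PAP went the other way there. These letters were searched on the strand of the gene only, and TTTTTT also counts as TTTT.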

How the data were processed

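The deposited lists held MACS2 peak summits called by the authors per library against IgG (p 0.05), with the −log10 p as score. Per the methods and labels, reads were checked with FastQC 0.72, trimmed with cutadapt 1.14, collapsed, mapped to hg19 with BWA 0.7.12 and filtered to uniquely mapped tags. Here, GENCODE release 44 on GRCh37 gave the genes, and windows of 100 bp on each side were merged before densities were computed. A symbol counted as a gene's own when 1 record carried it and it was not a numbered pseudogene, clone, provisional or family name. Copies were aligned globally to reference copies with Biopython. Shuffling used 20 sets and seed 1, and 3 of 3 steps recovered simulated answers. Members, gene lists and groups were chosen with earlier results of these data known. Named genes were the 5 highest scores per list, the leading gene of each class per list, genes in all 3 lists, the leading hosts and the reference RNAs, of which 1 host and some sequences are not reported here. Further snoRNA, scaRNA, U1, U2 and U6 genes with a summit in both depletion lists, the control snoRNA genes, ATG16L1, TBRG4, the leading miRNA genes and the seed groups were chosen after their values were seen. Computation ran in Python 3.11.15 (pandas 2.3.3, numpy 2.4.6, scipy 1.17.1) and drawing in matplotlib 3.10.9. The IgG sample entered only through the authors' peak calling.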

Additional observations from a re-analysis of the deposited data

How the results depend on the processing

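The ratios of summits at small RNA genes to shuffled positions, 0.866, 1.33 and 1.34 in the control, siStar-PAP and siRBM10 lists, moved beyond their intervals as follows. With p at most 0.01 the control ratio was 1.003, and with a score of 4 or more the ratios were 1.26, 2.18 and 2.24, so that the control value no longer lay below shuffled positions. Inside the genes only (0 bp) the siStar-PAP and siRBM10 ratios were 1.53 and 1.58, against the flanks 1.12 and 1.17, and without windows that hold an exon 1.2 and 1.16. For genes with a symbol of their own the 3 ratios were 0.577, 1.87 and 2.35. For snoRNA and scaRNA genes with a symbol of their own, whose alternatives were chosen after seeing the data, the ratios were 0.229, 3.56 and 3.92. In control they came to 0 with p at most 0.01 and with a score of 4 or more, where 0 summits remained. On siStar-PAP they came to 16 with a score of 4 or more, from 12 summits, and to 2.18 against the flanks. On siRBM10 they came to 7.54 inside the genes, 7.14 with a score of 4 or more and 2.49 against the flanks. The shares of control summits near a siStar-PAP summit, of control summits near an siRBM10 summit and of siRBM10 summits near a siStar-PAP summit, 13.7%, 10.9% and 30.2% within 500 bp, were 4.79%, 3.83% and 12.1% within 100 bp and 7.99%, 6.07% and 20.4% within 250 bp. The last was 25.6% with p at most 0.01. A shorter distance lowers any such share, and the shares over all autosomal summits are given within 500 bp only. These values therefore do not show whether the difference from autosomal summits in general changed. The causes were not tested. The other 39 alternative values, class shares among them, stayed within the intervals. No paired analysis was possible because the labels give no replicate numbers and each condition is 1 library, which also left no replicate to leave out. The depth of each list is unknown, and ratios that rest on few summits had wide intervals.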

Other observations

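Chromosome X, outside the autosomes described above, holds 431 small RNA gene records of the same types. They had 21 summits in control, 21 on siStar-PAP and 30 on siRBM10. The densities were 153 summits per Mb in control (94.5 to 233), 153 on siStar-PAP (94.5 to 233) and 218 on siRBM10 (147 to 311), against 183, 125 and 116 per Mb over the whole chromosome. Only the siRBM10 interval left out the density of its chromosome.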
